A study of Homo sapiens with 12 samples.

Results

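The 50 genes described here act in G2 phase and mitosis, the stretch of the cell cycle from the end of DNA replication to the separation of the daughter cells. They were chosen by name, with earlier results of these data known. A locus of the deposited table counted as a member when it carried 1 of the 50 listed symbols. Where several did, the locus of highest mean was taken. All 50 were found among 38272 loci, 14 of them on more than 1 locus, and all 50 were among the 32866 loci tested. The cells were K562, an established human line from a chronic myeloid leukaemia, sequenced as 12 RNA libraries: 4 groups, each of 3 samples that the labels call biological replicates. The control group was mock-transfected with a control siRNA and a control GapmeR (labelled SiCt and GapCt) and received no TNF. The TNF group had the same mock transfection and then tumour necrosis factor alpha at 20 ng/mL for 6 hours. The SG group was transfected with the pair labelled Si623 and Gap01, whose common target is a long non-coding RNA (lncRNA), and the TNFSG group had that transfection followed by the same TNF treatment. Both agents destroy the RNA they pair with, the siRNA through the RNA silencing complex and the GapmeR, a DNA-centred antisense oligonucleotide, through RNase H. All groups were thus transfected, a single cell line was used, and the siRNA and the GapmeR were given together, so their separate effects cannot be told apart. Nothing in the labels says that replicates came from separate cultures on separate days, so p-values measure the spread between these samples.

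Entry into mitosis is driven by the kinase CDK1 bound to cyclin B, and exit begins when the anaphase-promoting complex (APC/C) marks cyclin B and securin for destruction. Between these events the kinetochore attaches chromosomes to the spindle, the spindle checkpoint holds the APC/C until all are attached, and kinesins, the chromosomal passenger complex and anillin divide the cell. Most of these genes are transcribed in a late wave under the MuvB complex with B-MYB and FOXM1, and are repressed outside that window by the related DREAM complex. MuvB binds the cell cycle homology region near the start site, and NF-Y binds CCAAT boxes upstream of it.

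That shared promoter design is visible in the members, and 4 promoters are shown because they hold the motifs described here and belong to genes discussed below. Capitals mark TTTGAA or its reverse complement TTCAAA (the cell cycle homology region), and CCAAT or its reverse complement ATTGG. Sequences are from RefSeq on GRCh38.p14 and read 5′ to 3′ on the strand of the gene. ANLN (plus strand, chr7:36389612-36389861) is shown for the 250 bases before its start. CCNB2 (plus strand, chr15:59105046-59105145), PLK1 (plus strand, chr16:23678789-23678888) and CDC25C (minus strand, chr5:138331805-138331904, 1 of 4 promoters listed) are shown for the last 100.
ANLN: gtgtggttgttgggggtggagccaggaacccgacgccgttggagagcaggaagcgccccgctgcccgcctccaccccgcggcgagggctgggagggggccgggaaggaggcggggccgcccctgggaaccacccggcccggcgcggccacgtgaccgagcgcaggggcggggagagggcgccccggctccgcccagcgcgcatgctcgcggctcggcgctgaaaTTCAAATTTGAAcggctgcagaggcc
CCNB2: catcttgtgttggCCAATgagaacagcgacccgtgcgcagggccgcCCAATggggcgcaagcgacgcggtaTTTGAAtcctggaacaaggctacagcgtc
PLK1: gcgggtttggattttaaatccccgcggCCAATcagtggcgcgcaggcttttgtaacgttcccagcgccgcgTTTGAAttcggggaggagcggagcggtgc
CDC25C: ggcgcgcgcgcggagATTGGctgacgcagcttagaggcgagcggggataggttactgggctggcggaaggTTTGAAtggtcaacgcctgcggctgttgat

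The RefSeq table held a 300-base promoter, from 250 bases before to 50 after the start, for 43 of the 50 members. TTTGAA was found on either strand in 32 of the 43 genes (74.4%), against 18.2% of all 27305 genes in the table. The variant TTCGAA, which is its own reverse complement, was found in 3 members (6.98%), against 1.82% of all genes. At least 1 of the 2 motifs was present in 34 members (79.1%, against 19.5%), a CCAAT box in 33 (76.7%, against 39.7%), and a CCAAT box together with 1 of these motifs in a single promoter in 26 (60.5%, against 7.85%). Matches to the cell cycle homology region lay close to the start: the 52 matches had a median first base at -27, counting the last upstream base as -1, and 29 members had one within 50 bases of the start. Matches were counted in each listed promoter, so a site shared by overlapping promoters of a gene, as in CDC25C and ECT2, counts in each. In CCNB2 and PLK1 the match covers bases -29 to -24 and in CDC25C bases -30 to -25, each downstream of a CCAAT box. ANLN, the scaffold of the contractile ring, instead has a pair of adjacent matches on opposite strands at -26 to -21 and -20 to -15 and no CCAAT match in its window. The same search found TTTGAA or TTCGAA in 32 of 44 other mitotic genes (72.7%) but in 4 of 33 genes of G1/S and DNA replication (12.1%). A match is a description of these letters and not a measured binding site, and none of these shares was tested.

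**Figure D1:**
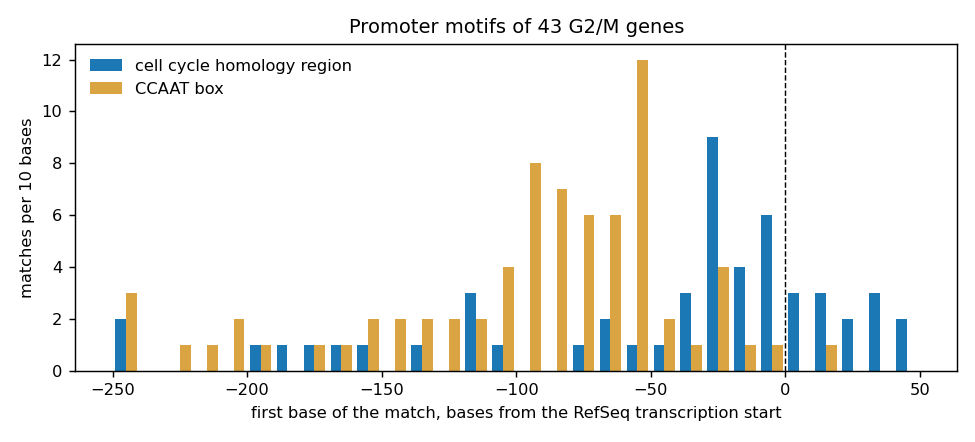
Number of matches to the cell cycle homology region (blue) and to the CCAAT box (yellow) in bins of 10 bases along the promoters of 43 members, against the distance in bases of the match's first base from the RefSeq transcription start (dashed line). Matches to the cell cycle homology region gather near the start, with a median at -27, and CCAAT boxes lie mostly upstream of them. A site shared by overlapping promoters of a gene is drawn for each promoter.

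As a group these genes were strongly expressed in K562. Mean levels over the 12 libraries ran from 3.14 FPKM for UBE2C to 168 FPKM for SPC25, with a median of 39.7 FPKM, and 89.7% of all loci lay below that median. FPKM is reads scaled to gene length and library size, so levels can be set beside each other between genes. Only UBE2C, the ubiquitin-conjugating enzyme of the APC/C, averaged under 10 FPKM, and 6 members averaged over 100 FPKM: SPC25, CCNB1 (cyclin B1), BUB3, CCNA2 (cyclin A2), TOP2A (topoisomerase II alpha) and BUB1B. The levels of SPC25 and BUB1B are those of unsteady loci and may not be those of the genes. Other loci named SPC25 averaged from 9.86 to 141 FPKM, and the BUB1B locus is shared with PAK6. Replicates were close, with a median coefficient of variation of 6.35% within a group.

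A few members varied too much between replicates for small changes to be read from them. MKI67, the gene of the proliferation antigen Ki-67, was listed at 0 in control replicate 2 beside 43.5 and 52.6 FPKM in the other control libraries, and lay between 41.5 and 55.7 FPKM in the other 9 libraries. Without that library its log2 difference was 0.04 for TNF against control and 0.10 for SG against control. The locus taken for SPC25, a subunit of the NDC80 kinetochore complex, ran from 44.9 to 325 FPKM over the 12 libraries, whereas another locus of that name was steady at 52.7 ± 4.53 FPKM in control, 48.2 ± 8.22 with TNF, 49.0 ± 1.18 in SG and 46.2 ± 2.96 in TNFSG (SD, n = 3). BUB1B, a checkpoint protein whose locus is shared with PAK6, ran from 34.3 to 220 FPKM, and UBE2C from 1.23 to 8.01 FPKM. CENPA, the centromeric histone variant, shares its locus with SLC35F6, so its reads cannot be assigned to it alone. ECT2, the exchange factor that starts cytokinesis, had a median coefficient of variation of 20.2%. Leaving SPC25, BUB1B, UBE2C and MKI67 out, an alternative added after seeing the data, changed no count of members called.

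Relative depths, recovered from the steps of low values, ran from 0.863 (control replicate 3) to 1.32 (TNFSG replicate 1) and the total depth is unknown. All 13 erythroleukaemia markers checked were present at a mean of at least 1 FPKM. Of fibroblast markers 3 of 5 were found, and their summed level ran from 23.9 to 56.3 FPKM in the control libraries, from 21.4 to 45.3 in those of SG, from 55.1 to 1178 in those of TNF and from 65.2 to 444 in those of TNFSG. COL1A2 carried the high sums, at 1098 FPKM in TNF replicate 1, 127 in TNF replicate 2 and 406 in TNFSG replicate 2, against 0 to 6.39 FPKM in the other 9 libraries. Its part in the results below was not tested. Of the other marker lists, 3 of 6 lymphoid, 4 of 5 epithelial and 1 of 4 endothelial markers were found. The labels do not tie the targeted lncRNA to a locus of the table. The locus MIR146A, near PTTG1 on chromosome 5, lay at 0.159 to 0.569 FPKM in control and 0 to 0.0630 FPKM in SG without TNF, and at 21.2 to 28.1 FPKM in TNF and 4.03 to 7.77 FPKM in TNFSG after it.

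The first question was what the targeted siRNA and GapmeR did to the mitotic genes without TNF (SG against control) and with it (TNFSG against TNF). These comparisons share no library. ANLN, which encodes anillin, fell in both, and no other member passed the test in either. Most other members had small differences below 0. Cyclin B2 (CCNB2) and the kinetochore subunit NUF2 had the lowest p values after ANLN in both. Values are FPKM per library in the order of replicates 1 to 3, and changes are log2 differences of FPKM + 1 from limma, with Benjamini-Hochberg adjustment over all 32866 loci and a threshold of 0.05. In bulk RNA, fewer cells in G2 and mitosis and less RNA per such cell cannot be told apart.

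ANLN (chromosome 7, 36389806 to 36453791 on the plus strand, GENCODE release 29) stood at 42.6, 46.9 and 40.7 FPKM in control and at 40.9, 46.7 and 42.6 FPKM in TNF. It stood at 26.3, 26.0 and 26.1 FPKM in SG and at 28.3, 30.4 and 25.8 FPKM in TNFSG. All 6 libraries of the targeted transfection were below all 6 of the mock transfection. The log2 change was -0.71 ± 0.08 (SE) for SG against control, or 38.8% lower (limma adjusted p = 0.0182), and -0.61 ± 0.08 for TNFSG against TNF, or 34.4% lower (limma adjusted p = 0.0353). Each call was lost when any 1 library of its comparison was left out, with limma adjusted p up to 0.0839 and 0.176, and also without the trend and with only the compared groups in the fit, while the log2 change stayed between -0.79 and -0.55. Calls over all loci became fewer in these fits too. A second, faint locus named ANLN averaged 3.95 FPKM.

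CCNB2, which with CDK1 drives entry into mitosis, stood at 80.4, 85.5 and 85.3 FPKM in control and at 67.4, 69.3 and 63.1 FPKM in SG. With TNF it stood at 78.7, 87.0 and 87.0 FPKM in TNF and at 69.3, 69.7 and 69.2 FPKM in TNFSG. No targeted library reached the lowest mock library, but the log2 differences of -0.33 ± 0.06 and -0.27 ± 0.06 (SE) did not pass (limma adjusted p = 0.108 and 0.200). NUF2, a microtubule-binding subunit of the NDC80 complex, stood at 34.7, 37.6 and 34.7 FPKM in control and 27.9, 26.4 and 27.3 FPKM in SG. With TNF it stood at 33.5, 37.3 and 32.8 FPKM in TNF and 27.3, 28.4 and 24.3 FPKM in TNFSG. Here too the mock and targeted libraries did not overlap, with log2 differences of -0.38 ± 0.08 and -0.36 ± 0.08 (SE; limma adjusted p = 0.148 and 0.175).

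BUB1, a kinase that recruits checkpoint proteins to kinetochores, stood at 80.5, 82.8 and 77.6 FPKM in control, 65.7, 65.8 and 57.0 in SG, 90.0, 95.0 and 83.4 in TNF and 81.0, 75.8 and 69.7 in TNFSG. The targeted libraries lay below the mock libraries within each TNF state, with log2 differences of -0.35 ± 0.08 and -0.24 ± 0.08 (SE; limma adjusted p = 0.203 and 0.409). Across the TNF states, TNFSG overlapped control. CKAP2, a spindle microtubule protein, held 33.5 ± 2.75 FPKM in control cells and 25.1 ± 2.97 in SG (SD, n = 3; log2 difference -0.41, limma adjusted p = 0.269), and 28.5 ± 2.27 in TNF and 22.9 ± 2.75 in TNFSG. SPC24, the partner of SPC25, went the other way without TNF, from 24.6 ± 1.41 FPKM in control to 30.2 ± 2.54 in SG (SD, n = 3; log2 difference 0.28, limma adjusted p = 0.243). With TNF, the members of lowest p after ANLN, NUF2 and CCNB2 were AURKA, the centrosomal kinase Aurora A, PRC1, the bundler of the central spindle, and BUB1. AURKA was at 58.4, 79.7 and 69.0 FPKM in TNF and 44.8, 51.7 and 41.9 in TNFSG (log2 difference -0.57 ± 0.16, SE, limma adjusted p = 0.306). PRC1 was at 105 ± 3.17 and 89.8 ± 3.18 FPKM (SD, n = 3; log2 difference -0.22, limma adjusted p = 0.318).

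**Figure D2:**
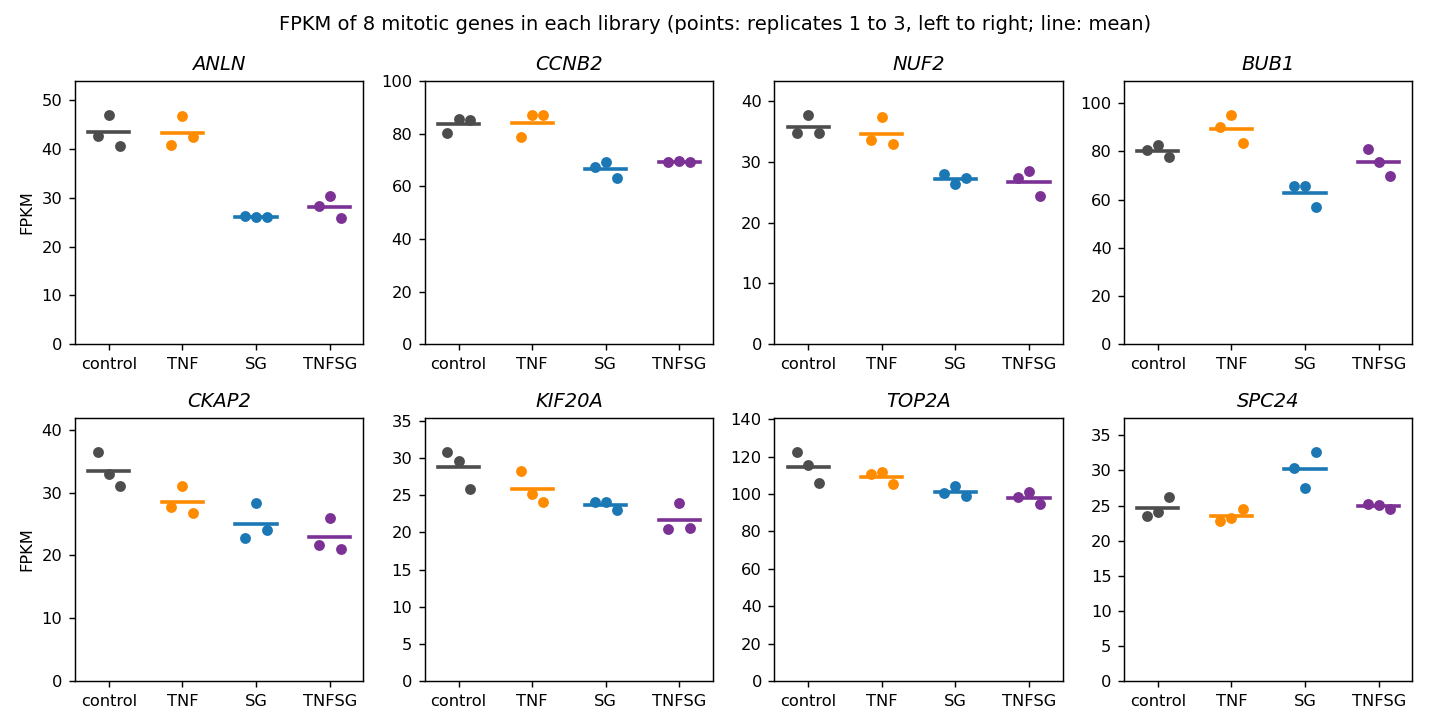
FPKM of 8 members in each of the 12 libraries, with points for replicates 1 to 3 and a line at the group mean, on linear axes from 0. For ANLN, CCNB2, NUF2, KIF20A and TOP2A all 6 targeted libraries (SG and TNFSG) lie below all 6 mock libraries (control and TNF), whereas SPC24 is highest in SG. The gap is narrow for KIF20A and TOP2A.

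Counted over the 50 members, 1 fell and 0 rose in SG against control, where 0.17% of all loci tested passed in either direction. In TNFSG against TNF, 1 fell and 0 rose, where 0.128% of all loci passed. At an unadjusted p under 0.05, 11 members were lower and 2 higher in SG against control (26% of members, against 9.86% of all loci), and 14 were lower and 0 higher in TNFSG against TNF (28%, against 9.11%). All SG libraries lay below all control libraries for 14 members (28%), against 4.62% of all loci, and above them for 2, SPC24 and the phosphatase gene CDC25C (4%, against 10.3%). All TNFSG libraries lay below all TNF libraries for 14 members, against 4.73% of all loci, and above them for 2, HMMR and SPC24 (4%, against 10%). The split over all loci depends on the scaling: at an unadjusted p under 0.05, 2241 were higher and 998 lower in SG against control as deposited, but 1072 higher and 1856 lower after quantile normalization. In TNFSG against TNF, 2084 were higher and 911 lower, and 1080 and 1758 after quantile normalization. Under that normalization 21 members were lower in each comparison (against 5.65% and 5.35% of all loci), and 1 and 0 were higher.

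The median log2 difference of the members was -0.13 in SG against control, with 37 of 50 below 0, and -0.12 in TNFSG against TNF, with 39 of 50 below 0. Over all loci tested the medians were 0.08 and 0.08 on the deposited scale, 0.02 and 0.03 after median-ratio scaling and -0.03 and -0.03 after quantile normalization, a shift of -0.11 and -0.11, so the sign of the background depends on the scaling. The members' median lay below that of all loci each time: the difference was -0.22 and -0.20 as deposited, -0.24 and -0.21 with median-ratio scaling and -0.17 and -0.14 with quantile normalization. Over loci at 5 FPKM or more, which are nearer to the members in level, the medians as deposited were 0.06 and 0.05. On the deposited scale the members' sign recurred between the comparisons: 35 of 50 (70%) were below 0 in both, against 20.3% of all loci. The same sign was found for 44 of 50 (88%), against 63.1%. On that scale 38.6% and 38.7% of all loci lay below 0. After quantile normalization 53.8% and 54.3% did, beside 42 of 50 members in each comparison, and the shared signs were not counted there. These counts describe the list, which was chosen with earlier results of these data known, and do not test it.

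By role, the lower values were spread over the mitotic machinery. All 7 kinesins were below 0 in both comparisons, with KIF20A, which carries the passenger complex to the midzone, lowest in TNFSG against TNF at -0.24 and KIF23, a subunit of centralspindlin, lowest in SG against control at -0.28. All 4 cytokinesis genes (ANLN, ECT2, PRC1, CEP55) were below 0 in both, with medians of -0.15 and -0.28. Among 7 genes of the spindle checkpoint and the APC/C, 6 and then 5 were below 0, with medians of -0.20 and -0.20. The 7 kinetochore and centromere genes were divided, with 4 below 0 in each comparison and medians of -0.02 and -0.04. Of 3 passenger complex genes (AURKB, BIRC5, INCENP), 2 and then 3 were below 0. Of 6 spindle proteins, 4 were below 0 in each comparison (medians -0.11 and -0.07), and of 6 genes of chromosome structure and proliferation 4 and then 5 (medians -0.11 and -0.11). Among the 10 kinases, cyclins and phosphatases of mitotic entry, 6 and then 7 were below 0, with medians of -0.13 and -0.10. CDK1 itself lay at 51.8 FPKM in control on average and differed by 0.00 and 0.12, and CDC25B and CDC25C, the phosphatases that activate CDK1, lay above 0 in both comparisons. FOXM1, the transcription factor of the late wave, differed by 0.03 and -0.04. After median-ratio scaling CDK1 and FOXM1 were at -0.08 and -0.05 in SG against control, while the kinesins and the cytokinesis genes were all below 0, and CDC25B and CDC25C above 0, in both comparisons under either scaling. The 34 members with a cell cycle homology region had median differences of -0.14 and -0.10, and the 9 with a promoter but without TTTGAA or TTCGAA, of which 6 hold a CCAAT box, -0.08 and -0.11, a difference that was not tested.

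**Figure D3:**
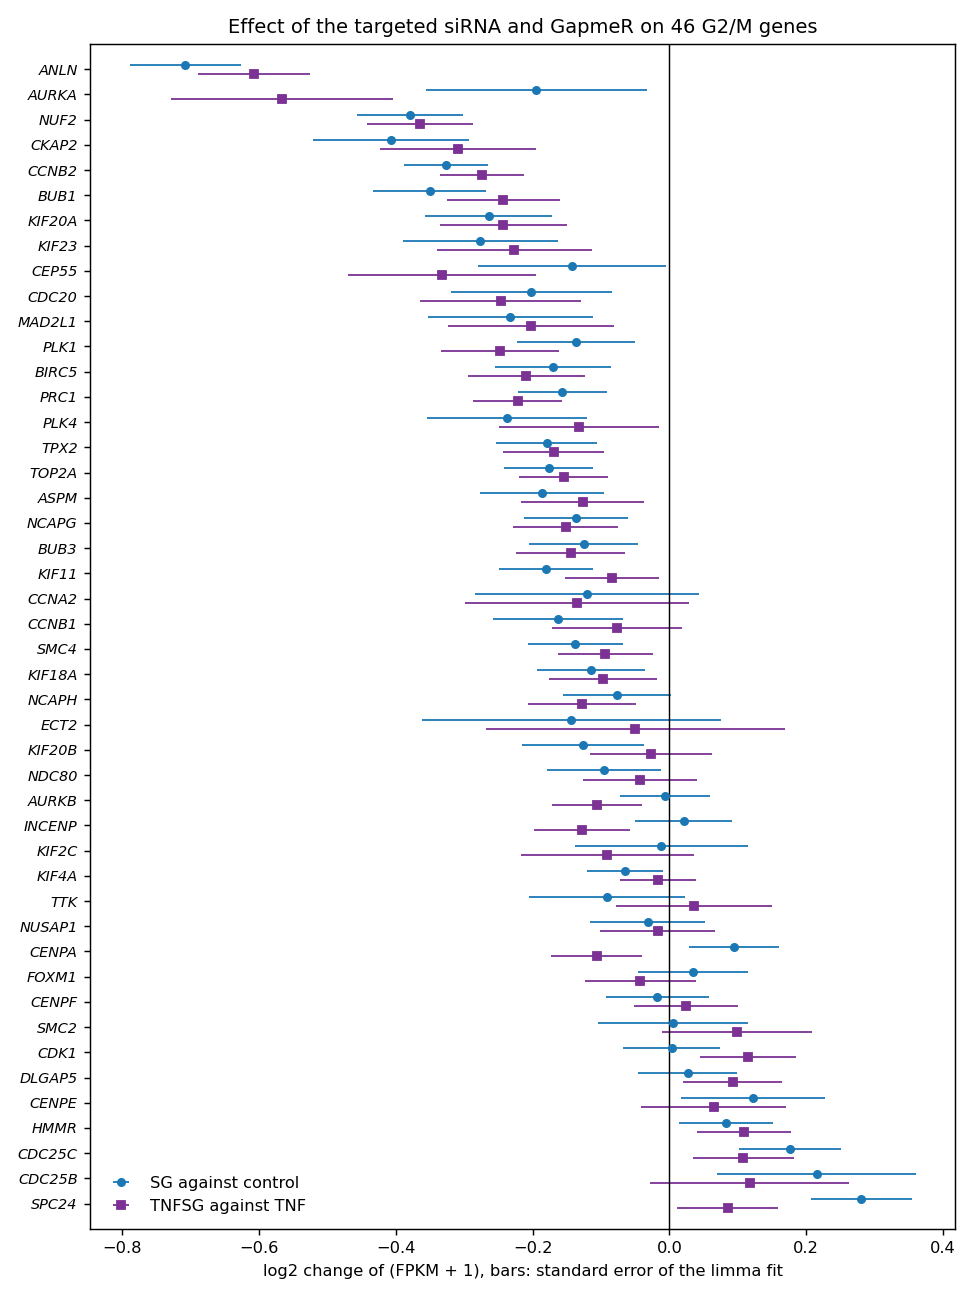
Log2 change of FPKM + 1 with its standard error from limma for 46 members, sorted by the mean of the changes, for SG against control (circles) and TNFSG against TNF (squares); SPC25, BUB1B, UBE2C and MKI67, whose libraries vary most, are not drawn. ANLN lies at -0.71 and -0.61, most members lie left of 0 in both comparisons, and SPC24, CDC25B and CDC25C lie right of 0.

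The interaction term, the change with targeting under TNF minus that without, passed for 0 members by limma, where 0.00913% of all loci passed, and 0 members had an unadjusted p under 0.05, against 3.75% of all loci. For ANLN it was 0.10 with a 95% interval from -0.16 to 0.36. The lowest p values belonged to CENPA (-0.20), SPC24 (-0.20) and AURKA (-0.37), each with a limma adjusted p of 1. The effect of the targeted transfection was also averaged over both TNF states, a comparison added after the data had been seen. On average, 3 members fell and 0 rose, against 1.11% of all loci passing in either direction. They were ANLN (-0.66 ± 0.06, SE, limma adjusted p = 0.00182), CCNB2 (-0.30 ± 0.04, adjusted p = 0.0148) and NUF2 (-0.37 ± 0.06, adjusted p = 0.0165). The ANLN call held in every alternative run. CCNB2 lost its call without control replicate 2 (limma adjusted p = 0.0524), without TNFSG replicate 3 (0.0518) and without the trend (0.0874). NUF2 lost it without control replicate 2 (0.0538), without SG replicate 3 (0.0516) and without the trend (0.0646). BUB1 was at -0.30 (limma adjusted p = 0.0504). For 5 members, these 3 with KIF20A and TOP2A, all 6 targeted libraries lay below all 6 mock libraries (10%, against 0.739% of all loci), and for 0 members above (against 1.36%). KIF20A was separated narrowly, with 24.11 FPKM in SG replicate 1 and 24.12 in TNF replicate 3. So was TOP2A, with 104.3 FPKM in SG replicate 2 and 105.2 in TNF replicate 3. The average uses the same libraries as the separate comparisons and is no further evidence for them.

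The second question was what TNF did to these genes. No member passed the test in the mock-transfected cells (TNF against control) or in the targeted ones (TNFSG against SG), although 1.45% and 1.64% of all loci did. At an unadjusted p under 0.05, 5 members were lower and 1 higher in each comparison (12%, against 11.2% and 11.4% of all loci), a share near the background. Control libraries are common to SG against control and TNF against control, so the values of these comparisons are not independent.

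In TNF against control the lowest p values belonged to KIF4A, KIF11, BUB1B, CCNB1, DLGAP5 and TPX2. KIF4A, a chromosome-bound kinesin, stood at 28.6, 28.6 and 27.6 FPKM in control and 24.5, 24.6 and 24.8 FPKM in TNF, without overlap (log2 difference -0.19, limma adjusted p = 0.169). KIF11, the motor that separates the spindle poles, held 35.7 ± 1.76 and 30.7 ± 0.526 FPKM (SD, n = 3; -0.21, limma adjusted p = 0.245). CCNB1 held 140.5 ± 9.53 and 118.5 ± 11.6 FPKM (SD, n = 3; -0.25, limma adjusted p = 0.351). For these genes every TNF library lay below every control library. DLGAP5 and TPX2, which organise spindle microtubules, each differed by -0.18 (limma adjusted p = 0.380 and 0.406), and the unsteady BUB1B by 1.39 (limma adjusted p = 0.303). In TNFSG against SG the order was SPC24 (-0.26, limma adjusted p = 0.163), BUB1 (0.26, 0.222), CEP55 (-0.39, 0.280), CENPA (-0.17, 0.332), KIF4A (-0.14, 0.337) and TPX2 (-0.17, 0.436). SPC24, at 30.2 ± 2.54 FPKM in SG, was at 24.6 to 25.2 FPKM in the TNFSG libraries (control 23.6 to 26.2). CEP55, which recruits the abscission machinery, had 17.9, 15.3 and 16.2 FPKM in SG and 14.9, 12.4 and 9.96 FPKM in TNFSG, without overlap.

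All TNF libraries lay below all control libraries for 8 members (16%, against 8% of all loci) and above for 2, CDC25C and BUB1 (4%, against 7.59%). All TNFSG libraries lay below all SG libraries for 9 members (18%, against 10%) and above for 3, BUB1, CDC25C and PLK4, the kinase of centriole duplication (6%, against 8.13%). The members' medians were -0.07 and -0.08 and those of all loci -0.02 and -0.03, and 29 of 50 members (58%) were below 0 in both comparisons, against 34.9% of all loci. Averaged over both transfections, again a comparison added after the data had been seen, 1 member passed, against 4.38% of all loci. It was KIF4A (-0.17 ± 0.04, SE, limma adjusted p = 0.0417), and 11 of 12 fits with a library left out no longer passed (adjusted p up to 0.104), nor did the fit without the trend (0.187). At an unadjusted p under 0.05 on that average, 5 members were higher and 10 lower (30% of members). Of all loci, 7.66% were higher and 8.23% lower.

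**Figure D4:**
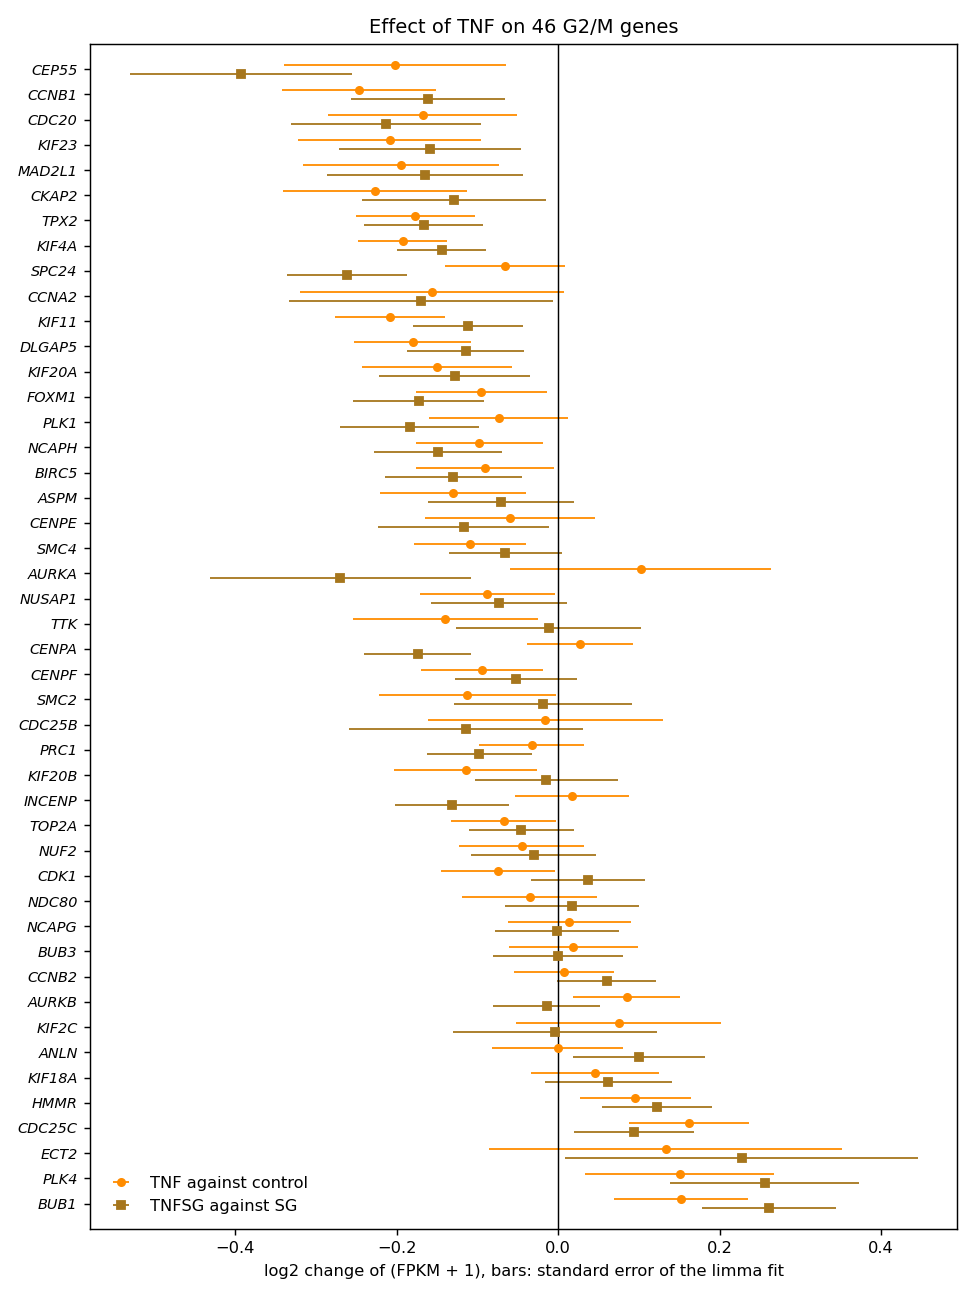
Log2 change of FPKM + 1 with its standard error from limma for 46 members, sorted by the mean of the changes, for TNF against control (circles) and TNFSG against SG (squares), without SPC25, BUB1B, UBE2C and MKI67. Most changes are smaller than those of ANLN under the targeted transfection, none passed the test, and BUB1 (0.15 and 0.26) and CEP55 (-0.20 and -0.39) lie at opposite ends.

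Libraries summarised the same pattern. Each member's log2 value was set against its own mean over the 12 libraries, and the median over the members was 0.07, 0.13 and 0.05 in control replicates 1 to 3, -0.01, 0.06 and 0.00 in TNF, -0.04, 0.03 and -0.05 in SG and -0.12, -0.03 and -0.12 in TNFSG. Every control library lay above every TNFSG library, while TNF overlapped control and SG, and SG overlapped TNFSG. Replicate 2 was the highest library of every group. Over all loci the same medians were between -0.06 and -0.03 in mock libraries and between 0.02 and 0.05 in targeted ones, without overlap, on the scale of the deposited values.

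**Figure D5:**
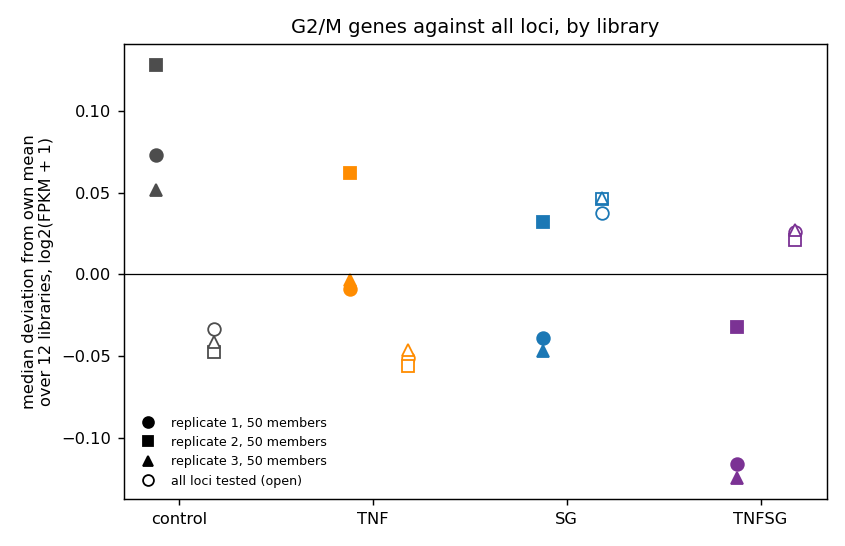
Median deviation of log2(FPKM + 1) from each locus's own mean over 12 libraries, by group, for the 50 members (filled) and for all loci tested (open); symbols give the replicate. Members are above 0 in control and below 0 in TNFSG, with replicate 2 (square) highest in every group, while all loci lie slightly below 0 in control and TNF and slightly above it in SG and TNFSG.

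Other genes of the cell cycle were read from lists for comparison. Among 58 other mitotic genes, 0 rose or fell by limma in either comparison of the targeted transfection, where 6 (10.3%, against 9.86% of all loci) and 9 (15.5%, against 9.11%) had an unadjusted p under 0.05, and the medians were -0.04 and -0.04, nearer to 0 than those of the 50 members. The lowest p values were those of FAM83D, a spindle protein (-0.29, limma adjusted p = 0.327), in SG against control and of HJURP, the chaperone that deposits CENPA (-0.28, limma adjusted p = 0.242), in TNFSG against TNF. With TNF, 2 of the 58 rose and 0 fell in TNF against control (against 1.45% of all loci), and 3 rose and 0 fell in TNFSG against SG (against 1.64%). The list as a whole lay the other way, with medians of -0.06 and -0.09 and with 35 and 39 of 58 below 0. PKMYT1, the kinase that holds CDK1 inactive, rose from 70.2 ± 7.48 to 102 ± 3.60 FPKM in TNF against control (SD, n = 3; log2 change 0.54, limma adjusted p = 0.00877) and from 72.0 ± 1.58 to 99.0 ± 4.96 FPKM in TNFSG against SG (0.45, limma adjusted p = 0.0216). SGO1, which protects centromeric cohesion, rose from 31.0 ± 1.58 to 40.4 ± 2.62 FPKM (SD, n = 3; 0.37, limma adjusted p = 0.0474) and from 27.7 ± 1.24 to 37.1 ± 2.46 FPKM (0.41, limma adjusted p = 0.0277). CKAP2L, a spindle protein, rose in TNFSG against SG from 9.02 ± 0.883 to 13.1 ± 0.646 FPKM (SD, n = 3; 0.50, limma adjusted p = 0.0246). With each of the 6 libraries of a comparison left out in turn, the PKMYT1 call in TNF against control held in all 6 fits. Its call in TNFSG against SG was lost in 6 (limma adjusted p up to 0.0926), those of SGO1 in 6 and 5 (up to 0.179 and 0.116) and that of CKAP2L in 5 (up to 0.108).

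Of 38 genes of G1/S and DNA replication, E2F3, a transcription factor of S-phase entry, fell in SG against control from 42.5 ± 2.45 to 27.7 ± 1.96 FPKM (SD, n = 3; -0.60, limma adjusted p = 0.0489), and was at -0.55 (limma adjusted p = 0.0691) in TNFSG against TNF. RFC2, a subunit of the clamp loader, rose with TNF in both transfections (0.38 and 0.34, limma adjusted p = 0.0101 and 0.0187). Leaving out any 1 library ended the E2F3 call (limma adjusted p up to 0.206) and the RFC2 call in TNFSG against SG (up to 0.0820), but not the RFC2 call in TNF against control. The medians of that list under the targeted transfection were 0.01 and 0.00. At an unadjusted p under 0.05, 4 of the 38 were higher and 4 lower in SG against control (21.1%, against 9.86% of all loci). In TNFSG against TNF, 4 were higher and 8 lower (31.6%, against 9.11%). The members' shares were 26% and 28%, so a share above that of all loci was not particular to them, though theirs lay mostly on the lower side. None of 15 APC/C subunits, 10 MuvB and DREAM genes or 6 CDK inhibitors passed in any pairwise comparison by limma. At an unadjusted p under 0.05 the largest number in a comparison was 5 of the APC/C subunits (33.3%) and 2 of the MuvB and DREAM genes (20%), both in SG against control (9.86% of all loci), and 1 of the CDK inhibitors (16.7%) in TNF against control (11.2% of all loci). The lowest p values among APC/C subunits were those of CDC16 with TNF (-0.22 and -0.18), CDC27 in SG against control (-0.27) and CDC26 in TNFSG against TNF (0.45). Among MuvB and DREAM genes they were those of LIN37 in TNF against control (0.26) and in SG against control (0.16), LIN54 in TNFSG against TNF (-0.28) and E2F4 in TNFSG against SG (-0.15). CDKN1A, a CDK inhibitor, had 5.68 ± 4.56 FPKM in control and 4.81 ± 0.681 in SG, and 13.4 ± 7.97 in TNF and 9.98 ± 2.63 in TNFSG (SD, n = 3). That spread was too wide for its differences of 1.19 and 0.90 with TNF to pass (limma adjusted p = 0.365 and 0.526). For the targeted transfection the lowest p values among the inhibitors were those of CDKN1C in SG against control (-0.46, limma adjusted p = 0.770) and CDKN2C in TNFSG against TNF (-0.21, limma adjusted p = 0.604).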

How the data were processed

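Total RNA of 12 K562 libraries (4 groups of 3) was isolated with Trizol, and single 50-base reads were made on an Illumina HiSeq, per the labels' protocols. The authors deposited FPKM values per locus, made with Bowtie2 2.2.9, TopHat2 2.0.14 and Cufflinks on hg38, per the submitters' processing notes; the sources used here do not give the Cufflinks version, the annotation or any scaling between libraries. Reads of overlapping, antisense or near-identical genes cannot be separated in these values.

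Here log2(FPKM + 1) was fitted with limma 3.58.1 in R 4.3.3 (group means, eBayes with trend) over all 12 libraries, for the 32866 loci that reached 1 FPKM in 3 or more libraries. Two-sided p-values were adjusted by Benjamini and Hochberg's method over all of them (threshold 0.05). The fit was tested on simulated data. Members and lists were chosen with earlier results of these data known. Full statistics are given for members past the threshold, values for the 6 members of lowest p per pairwise comparison and 3 in the interaction, and from other lists for called genes and the 1 of lowest p; KIF20A, KIF23, CDK1, FOXM1, CDC25B, CDC25C, HMMR, PLK4, TOP2A and the unsteady loci were named after their values were seen. Marker lists covered erythroleukaemia, lymphoid, fibroblast, epithelial and endothelial cells. Motifs were searched on both strands with Python 3.11.15, and figures were drawn with matplotlib 3.10.9. Alternatives were a replicate block, other pseudocounts and filters, median-ratio and quantile scaling, no trend, only the groups compared, and each library left out.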

Additional observations from a re-analysis of the deposited data

How the results depend on the processing

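Of 30 named member results in the separate comparisons, 2 passed the test, both of ANLN, and they lost the call in 16 of 30 alternatives. The other results did not pass to begin with, and among all 470 alternatives 3 gained a call and 4 changed sign. The 4 named results of the averages lost the call in 20 of 72 alternatives, 14 of them for KIF4A. The sign changes were all of ANLN in TNF against control, whose log2 difference of about 0 became 0.0151 with median-ratio scaling and lay between -0.0539 and 0.0553 with a library left out. In SG against control the members called were 2 with a filter at 5 FPKM (0.753% of all loci) or median-ratio scaling (0.25%). Each added CCNB2 (limma adjusted p = 0.0447 and 0.0361). The members called were 0 without the trend (0.0487% of all loci), with only the groups compared, and with any 1 library left out (0 to 0). Over all loci 18 rose and 38 fell in the main fit, against 8 and 4 of 26402 with only the groups compared. With a library left out, 3 to 10 rose and 6 to 14 fell. In TNFSG against TNF the members called were 0 without the trend (0.0548% of all loci), with only the groups compared, and in all left-out fits (0 to 0). There 19 of all loci rose and 23 fell in the main fit, against 0 and 2 of 26465 with only the groups compared. With a library left out, 0 to 8 rose and 3 to 10 fell. The median over members in SG against control was -0.22 with median-ratio scaling, -0.20 with quantile normalization and -0.153 to -0.0779 with a library left out. In TNFSG against TNF it was -0.187, -0.170 and -0.143 to -0.0793. In the interaction the median of 0.01 ranged from -0.0307 to 0.0467 over the left-out fits. Averaged over TNF states, the members called were 9 with median-ratio scaling (1.46% of all loci), 6 with quantile normalization (1.33%), 6 with the 5 FPKM filter (4.59%), 1 without the trend (0.481%) and 1 to 3 with a library left out (1 without control replicate 2). With a library left out, 58 to 189 of all loci rose and 74 to 174 fell for that average, against 195 and 170 with all libraries. The TNF average called 0 members with median-ratio scaling (4.22% of all loci), quantile normalization (4.07%) or no trend (3.52%). With a library left out it called 0 to 1, where 709 to 908 of all loci rose and 276 to 469 fell. The left-out fits also hold fewer samples, and the cause of these changes in the counts was not tested.

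Over all loci, equal replicate numbers paired the libraries little: 1 of 18 same-numbered pairs correlated above 0.1, and 8 libraries correlated best with their own number. Over the members without the 4 unsteady loci, 18 of 18 pairs correlated above 0.1, and 12 of 12 libraries correlated best with their own number. There the median correlation was 0.463 for equal numbers and -0.242 for unequal ones. The correlated values were deviations from each group's own mean. The negative value therefore follows largely from the positive one and adds nothing to it. For these genes the data thus hint at a replicate effect, which the main fit, without a replicate block, leaves in the spread. With a replicate block the members called were 1 in TNFSG against SG (BUB1, limma adjusted p = 0.0439; 2.57% of all loci), 10 for the targeted average (2.85%; BUB1 at 0.0113, KIF23, CKAP2, PRC1, PLK1, CDC20 and TOP2A were added) and 6 for the TNF average (6.40%). The same block kept 1 call each in SG against control (0.216% of all loci) and TNFSG against TNF (0.18%). Groups of 3 libraries and an unknown total depth limit the calls for changes as small as these.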
